A study of Bos taurus with 96 samples.

Results

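Intramuscular fat of cattle, the marbling inside a muscle, is described here through 9 genes of tendon and of the perimysium, the connective tissue sheet that wraps bundles of muscle fibres: MKX, SCX, TNMD, COMP, FMOD, TNC, THBS4, CILP and ANGPTL7. They were chosen by name, with their measured levels already known: most had been seen to be higher in intramuscular fat than in subcutaneous fat, in muscle or in the other fat depots. Comparisons of intramuscular fat, subcutaneous fat or muscle with another tissue are therefore given below as descriptions, without a test of the 9 genes. Of the 9 genes, out of 10680 genes named on the array, 7 could be matched to a probe, with 15 probes in all. SCX and CILP were not matched and have no value here.

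The study asked how gene expression differs among the fat depots of beef steers. Each of 96 samples was read on its own 1-colour Agilent array. There were 12 arrays each of intramuscular fat dissected from the longissimus muscle (IMF), intermuscular fat (Inter), kidney fat (Kid), omental fat (Omen) and subcutaneous rump fat (SC), each with 4 arrays a breed, from Hereford, Angus and Wagyu x Angus steers labelled as fed on pasture. The remaining 36 arrays were of longissimus dorsi muscle (LD), with 8 from pasture feeding and 4 from supplemental feeding in each of the 3 breeds. The design text gives the animals as steers of 26 months, all labels give 259 days in a feedlot, pasture arrays included, and the age field of the labels also reads 259 days. The labels do not tie arrays to animals, the depots shared steers according to the methods, and the pasture LD samples came from different kills that the labels do not tell apart, so p-values measure only the spread between these samples.

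Tendon fibroblasts are set on their course by the transcription factors scleraxis (SCX) and Mohawk (MKX), which switch on collagen and the membrane protein tenomodulin (TNMD). Around the collagen these cells lay down proteins that guide fibril growth and bind cells to the matrix, among them fibromodulin (FMOD), the thrombospondins COMP and THBS4, tenascin C (TNC) and cartilage intermediate layer protein (CILP). ANGPTL7 is a secreted protein of the angiopoietin-like family. The perimysium is continuous with tendon at the end of the muscle, and marbling fat grows between its sheets.

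A level here is log2 of a probe's signal minus the 75th percentile of log2 signals on the same array, so that 0 is the 75th percentile and a step of 1 is a doubling. Levels are compared between arrays for the same probe, never between probes. Each gene is given by 1 probe, the one in the study's own list or else the brightest. COMP is given by both of its probes because they differ.

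The labelled tissues carried their own markers. The mean level of 8 adipocyte genes lay between 3.83 and 5.37 on the arrays of Inter, Kid, Omen and SC, between 2.18 and 4.73 in IMF, and between -1.52 and 1.94 in LD. The mean level of 10 myofibre genes lay between 8.29 and 9.12 in LD, between 6.17 and 7.96 in IMF and at -2.99 or lower on every SC and Omen array. In Inter it ran from -4.05 to 5.92 and in Kid from -4.61 to 0.23. The myofibre markers of every IMF array were thus above those of every other fat array, and in bulk tissue more cells of a type and more RNA per cell cannot be told apart. All IMF arrays were scanned on 1 day, shared with 10 Omen, 8 LD, 1 Kid and 1 SC array, and all Inter arrays on another.

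Before the tissues are compared, 3 Inter arrays have to be named because they stood apart. They are the Angus array at slide 4, position 4, and the Wagyu x Angus arrays at slide 5, positions 2 and 3. TNMD was at 3.16, 3.75 and 1.86 on them and between -7.36 and -0.98 on the other 9 Inter arrays. THBS4 was at 5.74, 6.72 and 5.26, against -0.28 to 3.48 on the others. ANGPTL7 was at 2.15, 2.78 and 0.98, against -8.39 to -4.71, with only 3 of those 9 well above background. In TNMD, THBS4, ANGPTL7 and FMOD all 3 arrays were above every IMF array.

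The same arrays were also the highest Inter arrays in MKX, at -0.42, 0.63 and -1.19 against -5.56 to -1.72. FMOD was at 5.23, 5.59 and 4.03 against -0.24 to 3.03. COMP was at 2.79, 4.14 and 1.76 by its dimmer probe, against -4.90 to -0.41, and at -1.04, 0.07 and -1.61 by its brighter probe, against -3.33 to -2.34. TNC was the exception, with 2.17 and 2.42 on 2 of the arrays but -0.16 on the other, inside the range of the 9 remaining arrays from -2.41 to 0.10. By their main probes, 6 of the 7 genes put all 3 arrays above the other 9, as did 0.453% of all 34227 probes. Since the arrays were picked for these levels, the count is a description and no test.

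**Figure D1:**
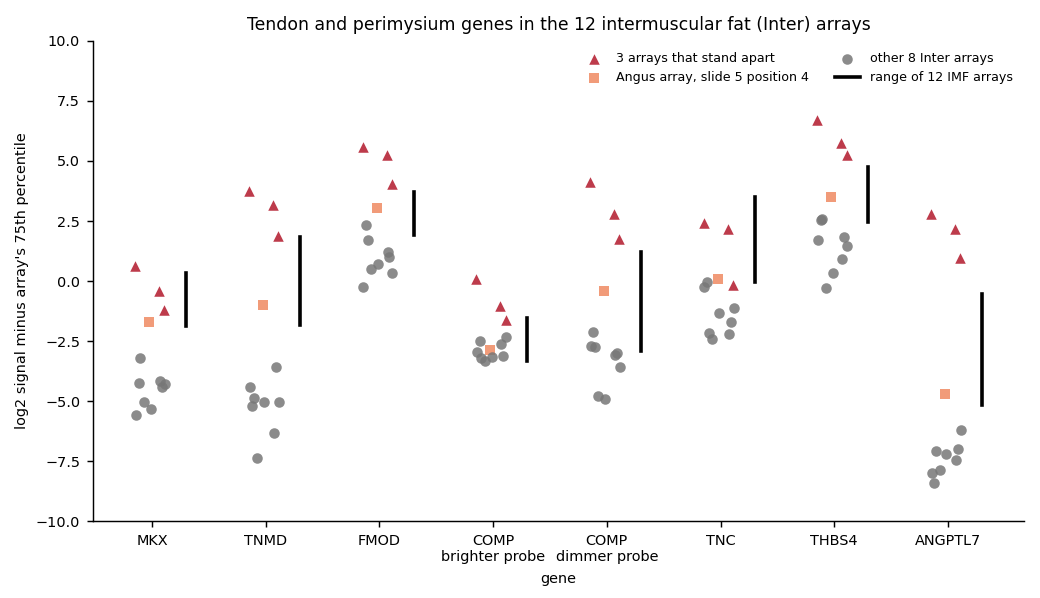
Level (log2 signal minus the array's 75th percentile, vertical axis) of each gene (horizontal axis) on the 12 intermuscular fat (Inter) arrays, with the range of the 12 intramuscular fat (IMF) arrays as black bars. Triangles are the 3 arrays that stood apart, which lie above the IMF range in TNMD, FMOD, THBS4, ANGPTL7 and the dimmer COMP probe; the square is an Angus array that lies between these and the 8 other arrays, shown as circles, except in TNC and the brighter COMP probe.

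A further Inter array, from Angus at slide 5, position 4, lay between the 3 arrays and the other 8 in MKX at -1.72, TNMD at -0.98, FMOD at 3.03, THBS4 at 3.48 and ANGPTL7 at -4.71. Its COMP level by the brighter probe, -2.87, was within the range of the 8 arrays (-3.33 to -2.34), and its TNC level of 0.10 was above the -0.16 of 1 of the 3 arrays. None of the 4 Hereford Inter arrays was among them, and there THBS4 was between -0.28 and 1.71. Slide 5 held 3 of these 4 arrays and 1 more Inter array, Wagyu x Angus at position 1, with TNMD at -4.88.

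The adipocyte markers of the 3 arrays were at 5.09, 4.58 and 4.85, against 4.14 to 5.03 on the other 9, and their fibroblast markers at 4.56, 4.63 and 4.93 in a range from 3.52 to 5.25. The 4 cartilage markers measured, COL2A1, SOX9, MATN1 and HAPLN1, averaged -4.37, -4.94 and -5.14, against -5.36 to -4.54 on the other arrays, so 1 array was slightly above them. The myofibre markers were at -1.29, 5.92 and -3.44, against -4.05 to 2.18 on the other 9, so that the Wagyu x Angus array at position 2 was above all of them and the other 2 arrays were within their range. The part of muscle in the levels of the 7 genes was not tested.

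**Figure D2:**
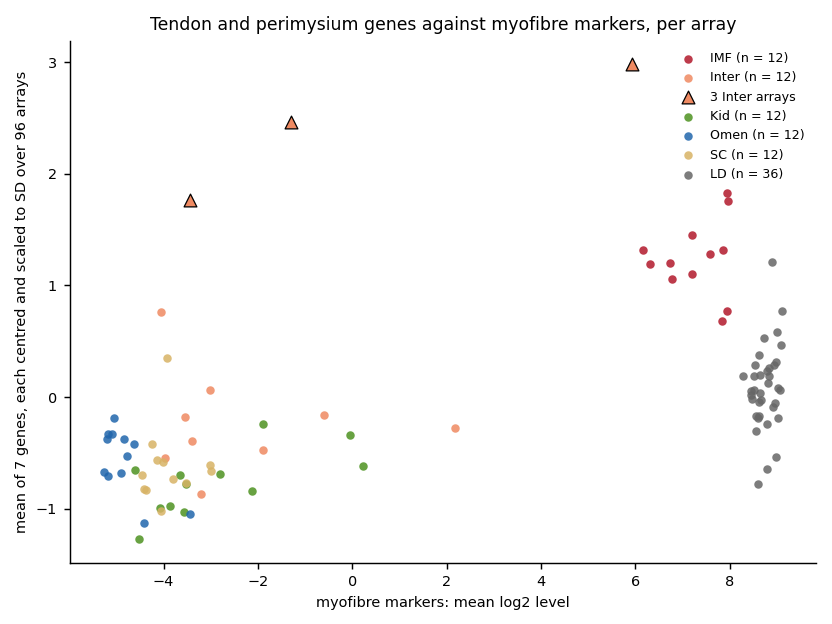
Mean of the 7 genes, each centred and scaled to its SD over 96 arrays (vertical axis), against the mean log2 level of 10 myofibre markers (horizontal axis), 1 point per array. The 3 Inter arrays, drawn as triangles at 2.46, 2.98 and 1.77, are spread over the myofibre axis from -3.44 to 5.92, while the LD arrays, which have the most myofibre signal, lie between -0.78 and 1.21 and the IMF arrays between 0.68 and 1.83.

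Of MKX and SCX, both regulators of tendon identity, MKX was measured and SCX was not matched to a probe. MKX was between -1.87 and 0.34 in IMF, with a median of -1.19. Its medians were -4.20 in Inter, -5.53 in Kid, -5.23 in Omen, -5.66 in SC and -3.79 in LD. No Kid, Omen, SC or LD array reached the lowest IMF array, and only the 4 Inter arrays named above did. On average MKX was 24.11-fold higher in IMF than in SC and 7.31-fold higher than in LD, where 8 of 12 and 34 of 36 arrays measured it above background. Comparisons of IMF with LD take all 36 LD arrays, of both diets, unless a scan day is named, while all IMF arrays were labelled pasture. The LD mean of MKX was -4.1 on pasture and -3.36 on supplement. The means of Inter and LD, of Omen and Kid, and of Kid and SC were closer than the larger SD of each pair.

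TNMD, a marker of mature tendon fibroblasts that is also known from adipocytes, was between -1.82 and 1.82 in IMF with a median of 0.08, and its median was -2.67 in LD, -4.65 in Inter, -6.92 in Kid, -6.71 in Omen and -7.70 in SC. Only 2 of the SC, 4 of the Kid and 6 of the Omen arrays measured it above background. The mean was 127.76-fold higher in IMF than in SC on this scale, and 6.21-fold higher than in LD, where 13 of 36 arrays reached into the IMF range. With a different background correction (normexp) the IMF minus SC difference fell from 7.0 to 3.14 on the log2 scale, and that of IMF minus LD for COMP changed sign, from 0.19 to -0.12.

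Among the matrix proteins TNC, a large glycoprotein of tendon and of the muscle-tendon junction, was between -0.03 and 3.49 in IMF with a median of 1.15. Its medians were -0.69 in Inter, -2.20 in Kid, -3.16 in Omen, -3.12 in SC and -1.83 in LD, and no Omen or LD array reached the lowest IMF array. The mean difference from SC was 4.11 and from LD 3.31. A probe of TNC differed from its main one, with an IMF minus LD difference of -0.05, while the remaining 2 probes gave 2.57 and 3.32.

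THBS4, a thrombospondin of the muscle-tendon junction, was high in muscle as well as in IMF. It was between 2.46 and 4.74 in IMF with a median of 3.62 and between 1.94 and 4.67 in LD with a median of 2.84, so that 31 of 36 LD arrays overlapped the IMF arrays. Its medians were 2.18 in Inter, -0.14 in Kid, -1.15 in Omen and -0.69 in SC, and every IMF array was above every Kid, Omen and SC array. The means of IMF and LD differed by 0.68, less than the larger SD of 0.69.

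FMOD, a small proteoglycan that binds collagen fibrils, was between 1.91 and 3.70 in IMF with a median of 3.48, and its medians were 2.66 in SC, 2.35 in Omen, 1.51 in LD, 1.46 in Inter and 0.49 in Kid. All Kid arrays were below the lowest IMF array, while 11 of 12 SC arrays were not.

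COMP, a pentameric thrombospondin that links collagen fibrils, depended on the probe. By its dimmer probe it was between -2.90 and 1.20 in IMF with a median of -1.37, and its medians were -2.71 in Inter, -4.49 in Kid, -3.36 in Omen, -3.41 in SC and -3.29 in LD. By its brighter probe the means of IMF and Inter were both -2.39, and those of the other tissues lay between -3.21 and -2.58. On that probe no neighbours in the order of tissues were farther apart than the larger of their SDs.

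ANGPTL7 was between -5.16 and -0.52 in IMF with a median of -2.25, and all 12 arrays measured it. In the other tissues the medians lay between -7.59 in Kid and -6.49 in LD, and it was above background on 6 Inter, 2 Kid, 7 Omen, 4 SC and 9 of 36 LD arrays. The mean difference of IMF from SC was 4.45 and from LD 4.00 by this probe, but 1.53 and 0.51 by its other probe.

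**Figure D3:**
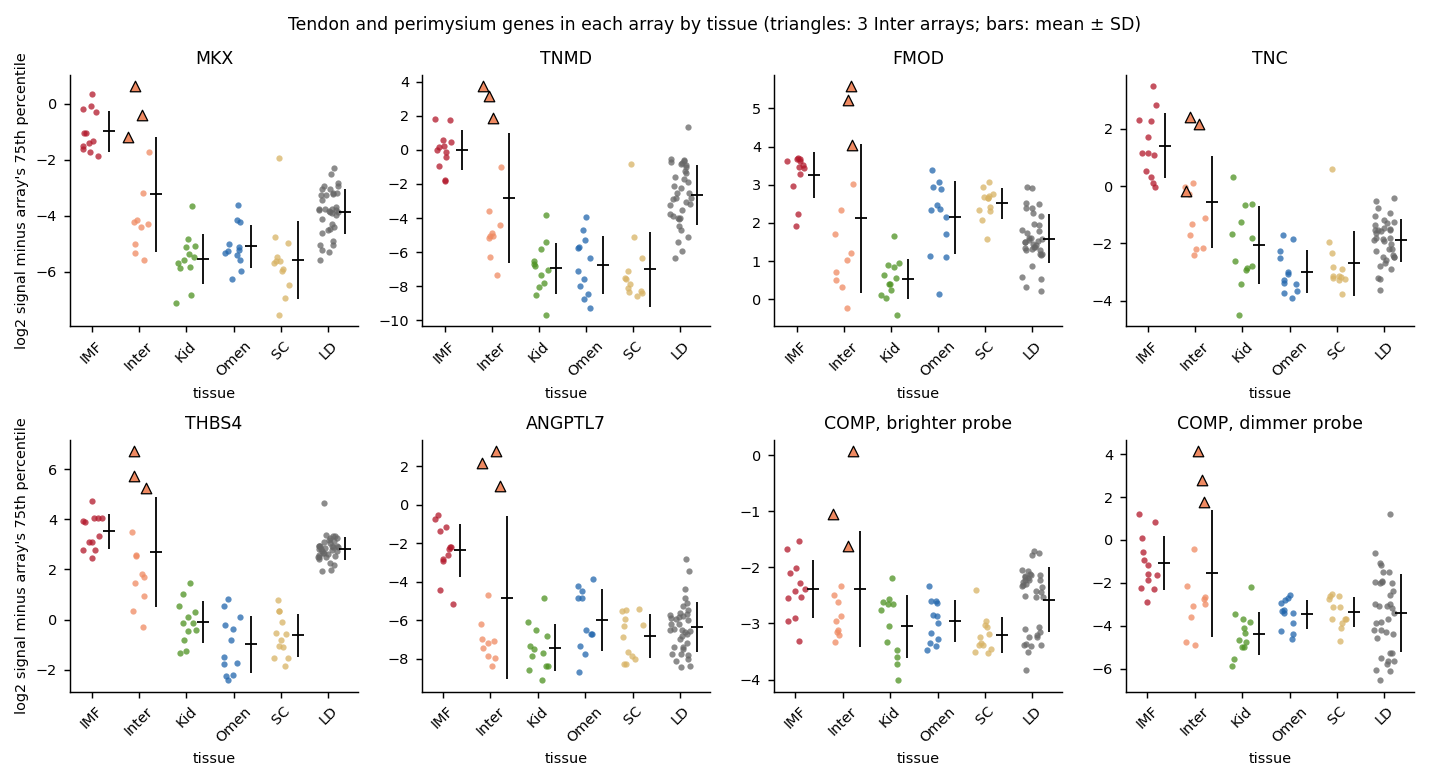
Level of each gene (log2 signal minus the array's 75th percentile, vertical axis) by tissue (horizontal axis), with 1 point per array and black bars for mean ± SD (12 arrays a tissue, 36 for LD). In MKX, TNMD, TNC and ANGPTL7 the IMF mean is the highest of the 6 tissues, and the 3 Inter arrays drawn as triangles set the wide bars of Inter.

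By their means 6 of the 7 genes were highest in IMF, with COMP by its brighter probe level with Inter. Since the genes were chosen from these contrasts, no test of them is given; of all probes 31.2% were called higher in IMF than in SC and 36.1% higher than in LD (adjusted p under 0.05 in limma). Other cell type markers were also highest in IMF: 5 smooth muscle genes had a median level of 5.06 there, against 2.10 to 2.88 in the other tissues, and 5 Schwann cell genes -0.07, against -4.98 to -2.23. The 4 mesothelium markers measured had a median level of -1.76 in IMF, against -3.46 to -2.21. The 4 cartilage markers measured had -4.23, against -5.08 to -4.47, with HAPLN1 above background on 4 of 12 IMF arrays. Gene by gene, of the mesothelium markers only KRT18 had its highest mean in IMF (0.36), while MSLN and UPK3B had it in Omen and KRT8 in LD. No cartilage marker had its highest mean in IMF: COL2A1 had it in SC (-1.26, against -1.92 in IMF), SOX9 in Omen, and MATN1 and HAPLN1 in LD. The part of these lists in the levels of the 7 genes was not tested. Every IMF array was above every array of the other tissue in 4 genes for Kid (4.62% of all probes), 4 for Omen (5.09%), 3 for SC (6.66%), 2 for LD (6.25%) and 0 for Inter (4.25%). Within the scan day that IMF shares with 10 Omen arrays the IMF minus Omen differences of the 7 genes were 0.56 to 6.73, against 0.57 to 6.73 over all arrays. With 8 LD arrays of that day the IMF minus LD differences were 0.46 to 4.19, against 0.19 to 4.00 over all. TNMD differed from LD by 4.19 within the day and by 2.63 over all arrays, FMOD by 2.32 and 1.67, and COMP by its dimmer probe by 3.50 and 2.33. For SC, with 1 such array, scan day and depot cannot be told apart.

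The other genes of tendon and its matrix, which were not chosen for this contrast one by one, did not all follow. Of 11 collagens and fibre proteins measured, 4 were higher in IMF than in SC and 7 lower, with a median difference of -1.02. Among those lower were the fibril collagens COL1A1, by 1.58 ± 0.21 (SE, adjusted p = 6.54e-07), COL5A2 and COL1A2, and among those higher was CNMD (chondromodulin, the closest relative of TNMD), by 1.54 ± 0.38, which only 2 of 12 SC arrays measured above background. Against LD the same list was the other way round, with 10 of 11 higher in IMF, among them ELN (elastin) by 2.85 ± 0.18 and LOX, which cross-links collagen, by 2.43 ± 0.17. Over all probes the median difference was near 0 in both comparisons, at -0.00 and -0.04. The fibroblast markers had median levels of 4.32 in IMF, 5.01 in SC and 2.83 in LD. Outside the gene lists, PDGFRA had means of 1.3, 1.94 and 0.17, THY1 3.04, 4.74 and 1.63, and DPT 2.94, 2.64 and 2.97. Within IMF, COL1A2, COL3A1, COL5A1, COL5A2, LOX and FBN1 fell with the myofibre markers and COL11A1 rose. Their adjusted p was 0.00464 to 0.0447 in limma, where 33.9% of all probes passed. The part of these markers in the differences was not tested.

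Of 12 small leucine-rich proteoglycans other than FMOD, 6 were higher and 2 lower in IMF than in SC, the largest difference being CHAD (chondroadherin) with 1.92 ± 0.18. Of 13 tendon regulators other than MKX, 10 were higher and 2 lower. The largest differences were EYA2, a transcriptional coactivator, with 4.11 ± 0.33, SOX9 with 3.06 ± 0.37 and the growth factor TGFB3 with 2.33 ± 0.23. SOX9 was above background on only 2 of 12 SC arrays, so the size of its difference depends on signals near background. Of 7 thrombospondins, tenascins and matrilins other than the members, 3 were higher and 1 lower. CILP2, the closest relative of CILP, was 4.23 ± 0.44 higher (adjusted p = 1.31e-08). Of 5 angiopoietin-like genes other than ANGPTL7, only ANGPTL1 was higher in IMF, by 1.44 ± 0.21, and 3 were lower, with ANGPTL4 at -1.99 ± 0.20. Of all probes, 64.2% passed the same threshold in either direction between IMF and SC, and 75.3% between IMF and LD.

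The abdominal and intermuscular depots were not used to choose the genes one against the other and were tested. MKX was higher in Inter than in Kid by 2.29 ± 0.61 (SE, 4.89-fold, adjusted p = 0.0161), TNMD by 4.12 ± 1.12 (adjusted p = 0.0175) and THBS4 by 2.78 ± 0.65 (adjusted p = 0.00738, limma in each case). These 3 of 7 genes compare with 15.4% of all probes past the threshold. FMOD, at 1.59 ± 0.55, TNC, at 1.51 ± 0.58, ANGPTL7, at 2.61 ± 1.20, and COMP, at 0.66 ± 0.32, did not pass, with adjusted p between 0.0519 and 0.163. By its dimmer probe COMP did, with 2.82 ± 0.86 (adjusted p = 0.0296). FMOD passed with breed in the model (adjusted p = 0.034), with arrays centred on their mean (0.0485) and with the authors' table of values (0.0443, limma in each case).

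Against Omen 4 of 7 genes were higher in Inter, with 13.6% of all probes past the threshold. THBS4 was higher by 3.68 ± 0.68 (adjusted p = 0.0011), TNC by 2.42 ± 0.48 (adjusted p = 0.00221), TNMD by 3.90 ± 1.14 (adjusted p = 0.0258) and MKX by 1.85 ± 0.60 (adjusted p = 0.0417, limma in each case). The MKX call was lost with the methods' t-test (adjusted p = 0.0564) and with the replicate block in limma (adjusted p = 0.0555). It was also lost in some of the fits that left out 1 array, counted below. FMOD differed by -0.02 ± 0.59 and ANGPTL7 by 1.18 ± 1.28, neither past the threshold. The myofibre markers had median levels of -3.11 in Inter, -3.55 in Kid and -4.98 in Omen, and their part in the differences between these depots was not tested.

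These differences rested in part on the 3 Inter arrays. Without them MKX was 1.32 higher than in Kid (adjusted p = 0.051) and TNMD 2.20 (adjusted p = 0.043), while THBS4 was 1.71 higher (adjusted p = 0.0145). Against Omen, TNC stayed past the threshold at 1.74 (adjusted p = 0.00362) and THBS4 at 2.61 (adjusted p = 0.00173), but MKX at 0.88 and TNMD at 1.98 did not (adjusted p = 0.157 and 0.0784). ANGPTL7 was then 1.09 lower in Inter than in Omen (adjusted p = 0.248) and had been 1.18 higher with the 3 arrays. With scan day in the model none of the 7 genes passed in either comparison, with THBS4 nearest at 2.53 (adjusted p = 0.0559) for Kid and 4.71 (adjusted p = 0.06) for Omen. The differences from Kid were then 2.16 for MKX (adjusted p = 0.0721) and 3.42 for TNMD (adjusted p = 0.12), and those from Omen 1.58 for MKX, 3.87 for TNMD and 2.53 for TNC, against 1.85, 3.90 and 2.42 without that term. With slide as a random block only THBS4 passed against Kid (adjusted p = 0.0265), where MKX was at 2.20 and TNMD at 4.01, and THBS4 and TNC against Omen. With normexp background correction the difference from Kid was 1.26 for MKX (adjusted p = 0.0478) and 2.16 for TNMD, which no longer passed (adjusted p = 0.0747), and neither passed against Omen, at 1.14 and 2.09 (adjusted p = 0.064 and 0.0736).

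**Figure D4:**
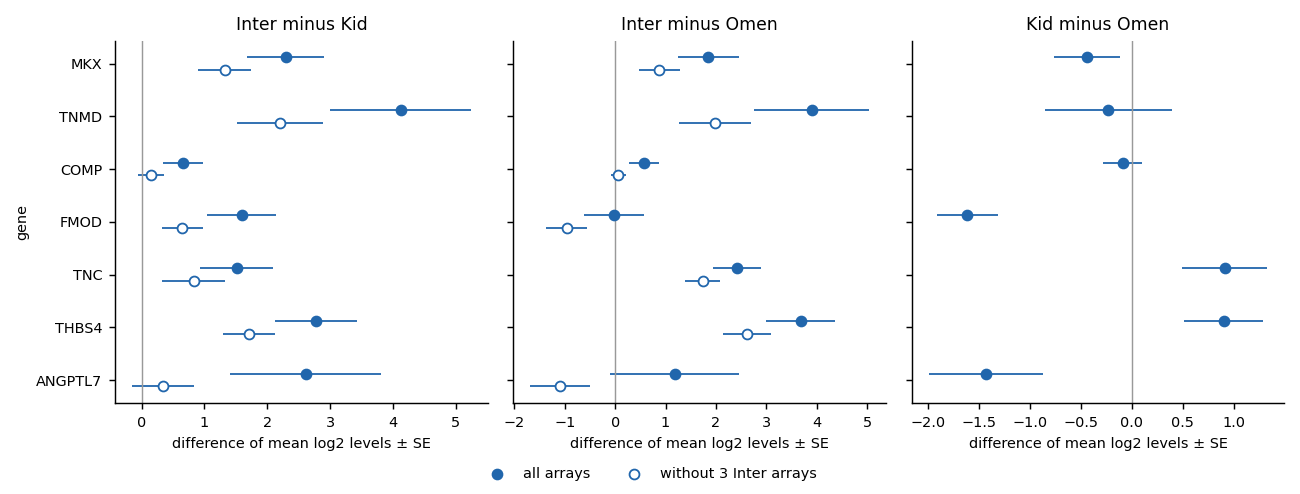
Differences of mean log2 levels ± SE (horizontal axes) for the 7 genes (vertical axis) in the 3 pairs of depots, from all arrays (filled) and without the 3 Inter arrays that stood apart (open). THBS4 stays above 0 against both depots, and ANGPTL7 changes side against Omen.

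Between the abdominal depots only FMOD differed, lower in Kid than in Omen by 1.61 ± 0.30 (3.06-fold, adjusted p = 0.00162 in limma), with 12.1% of all probes past the threshold. FMOD was between -0.41 and 1.65 on the Kid arrays and between 0.14 and 3.39 on the Omen arrays, so the depots overlapped. With scan day in the model the difference was -1.39 (adjusted p = 0.115), and on the 1 day that both depots share with at least 2 arrays it was -1.42, over 6 Kid and 2 Omen arrays. ANGPTL7 was at -1.43 ± 0.56 (adjusted p = 0.0919) and the other 5 genes between -0.44 and 0.91.

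The wider lists were compared between Inter and Kid, where 7.84% of all probes were past the threshold and higher in Inter and where scan day or slide in the model cut the calls over all probes from 5276 to 2775 or 1269. Of 11 collagens and fibre proteins 7 were higher in Inter and 0 lower (without the 3 arrays 4 and 0). The fibroblast markers, 8 genes of which 5 (COL1A1, COL1A2, COL3A1, DCN and LUM) are also in the wider lists, had a median level of 4.59 in Inter (3.52 to 5.25), 3.56 in Kid (3.09 to 4.92) and 4.21 in Omen (2.81 to 4.65). Of the 3 fibroblast markers outside those lists, PDGFRA had a mean level of 1.86 in Inter and 1.09 in Kid, THY1 3.7 and 3.1, and DPT 3.0 and 2.68. The part of the fibroblast markers in these differences was not tested. The 4 largest differences among the collagens and fibre proteins were FBN1 (fibrillin) by 1.84 ± 0.42, LOX by 1.17 ± 0.30, COL1A2 by 1.13 ± 0.31 and COL1A1 by 1.04 ± 0.34. Without the 3 arrays FBN1, COL3A1, COL5A2 and ELN passed. LOX, COL1A2 and COL1A1 did not then (adjusted p = 0.058, 0.0866 and 0.159 in limma). Of 12 proteoglycans 5 were higher, led by KERA (keratocan) by 7.90 ± 0.76 (adjusted p = 6.52e-06), which only 2 of 12 Kid arrays measured above background, so that this difference depends on signals near background. Without the 3 arrays 4 were higher and 1 lower. Of 13 regulators EYA2, TGFB3 and SOX9 were higher, by 1.17, 0.92 and 0.87. Without the 3 arrays 2 of 13 were, TGFB3 by 0.78 (adjusted p = 0.0167) and TGFBR2 by 0.81 (adjusted p = 0.0488, limma in each case). EYA2 and SOX9 did not pass then. Of 7 thrombospondins, tenascins and matrilins 4 were higher (2 without the 3 arrays), with THBS3 by 1.55 ± 0.32.

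Against Omen the regulators went both ways, with EYA2 higher in Inter by 3.85 ± 0.37 and SOX9, BMP4 and EGR1 lower, by 1.49, 1.08 and 0.90. In the angiopoietin-like family ANGPTL5 was higher in Inter than in Kid by 4.73 ± 0.58 and than in Omen by 4.51 ± 0.51, and ANGPTL1 by 2.11 ± 0.38 and 2.84 ± 0.26. ANGPTL5 was above background on 6 Kid and 7 Omen arrays only.

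The genes most like the members over the 21 groups of tissue, breed and diet, out of 10588 genes ranked, were CHAD (r = 0.92 with the mean of the members), TMEM61 (0.89), CILP2 (0.89), RGS7BP (0.89) and TNFRSF11B (0.87). Within groups, over the residuals of 96 arrays, they were CHAD (0.87), CILP2 (0.80), OTOR (0.78), STEAP2 (0.67) and VIPR2 (0.67). The correlations describe these groups and arrays, which share tissue and slides. Without the 3 Inter arrays CHAD still ranked first, at 0.66, followed by VIPR2 at 0.63 and CILP2 at 0.61. On the 3 arrays CILP2 was at 3.33, 4.49 and 2.23, against -5.24 to -0.77 on the other Inter arrays, and CHAD at 1.93, 1.5 and 0.18, against -4.02 to -2.39. COL1A1 was at 5.83, 5.86 and 4.99 there, inside the range of the others from 3.15 to 5.97, and COL3A1 at 6.26, 6.09 and 6.81, inside or at the low end of 6.04 to 7.14.

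Among the members the residuals of MKX and TNMD followed the mean of the other members most closely, with r = 0.77 and 0.80 over 96 arrays and 0.68 and 0.73 without the 3 Inter arrays. THBS4, ANGPTL7 and COMP fell from 0.64, 0.68 and 0.57 to 0.33, 0.33 and 0.24 without them.

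An SC array also stood apart, in part of the genes. On the Hereford array at slide 17, position 2, MKX was at -1.94, TNMD at -0.80 and TNC at 0.58, each the highest of the 12 SC arrays. THBS4 there was at -1.04, FMOD at 2.66 and COMP at -3.13 by the dimmer probe, within the range of the other SC arrays. Its smooth muscle markers were at 5.60, the highest of the SC arrays, which had a median of 2.10, whereas its myofibre markers were at -3.93. The part of smooth muscle in these levels was not tested.

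Among the 12 IMF arrays FMOD was between 2.96 and 3.70 on 10 arrays and at 1.91 and 2.24 on the other 2, an Angus array at slide 18, position 2, and a Wagyu x Angus array at slide 8, position 3. The same arrays had the lowest TNMD, at -1.82 and -1.78, and had myofibre markers at 7.94 and 7.84, in an IMF range from 6.17 to 7.96. Over the 12 arrays FMOD had a Pearson r of -0.33 and a Spearman rho of 0.03 with the myofibre markers (permutation p = 0.31 and 0.94), and r was -0.34 without the 2 arrays farthest from the median.

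Of the 7 genes only COMP changed with the myofibre markers within IMF, by 0.51 ± 0.18 per unit of their level (adjusted p = 0.0411 in limma), with 33.9% of all probes past the threshold. The call was lost in 8 of 12 fits that each left out 1 array (adjusted p up to 0.158), and also with arrays centred on their mean, with the authors' table, with all probes and with the replicate block. By permutation, r was 0.65 (p = 0.023, adjusted p = 0.15 over the 7 genes) and rho 0.76 (p = 0.0065, adjusted p = 0.045), and without the 2 arrays farthest from the median r was 0.55. By the dimmer COMP probe r was 0.35 (permutation p = 0.26). ANGPTL7 went the other way, at -1.25 ± 0.48 per unit (adjusted p = 0.0646), with r = -0.59 and rho = -0.65 (adjusted permutation p = 0.15 and 0.09) and r = -0.61 without the 2 arrays. For MKX, TNMD and TNC r was between -0.01 and 0.12.

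Breed was tested in IMF, in all fat and in LD on pasture. In IMF 0 of 7 genes passed (19 probes, or 0.0555%, did). TNC came nearest: it was at 2.30, 1.14, 2.82 and 3.49 on the Hereford arrays, at 0.54, 1.72, 2.28 and 1.09 on the Angus arrays and at 1.16, -0.03, 0.11 and 0.32 on the Wagyu x Angus arrays. The 4 Hereford arrays and the 4 Wagyu x Angus arrays overlapped in 1 pair of values. The difference of Wagyu x Angus from Hereford was -2.05 ± 0.50 (adjusted p = 0.0765 in limma), and TNC gave an adjusted p of 0.178 over all 3 breeds in limma. The smooth muscle markers were at 6.48, 5.12, 6.77 and 7.08 on the Hereford arrays, at 5.06, 5.04, 5.89 and 5.05 on the Angus arrays and at 4.53, 4.18, 3.72 and 4.33 on the Wagyu x Angus arrays, and their part in the levels of TNC was not tested. ANGPTL7 was 1.87 ± 0.79 higher in Wagyu x Angus than in Angus IMF (adjusted p = 0.675).

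Over the 60 fat arrays, with depot in the model, 0 of 7 genes differed between breeds (3.2% of all probes), with adjusted p between 0.536 and 0.991. The interaction of depot and breed passed for 0 of 34227 probes (0.0%) in limma, with 2512 at an unadjusted p under 0.05. THBS4, FMOD and MKX were among these, with adjusted p of 0.342, 0.476 and 0.553 in limma. In LD on pasture 0 of 7 genes differed between breeds, with 14.7% of all probes past the threshold. The lowest adjusted p was 0.14, for FMOD, with a mean of 1.06 ± 0.70 in Wagyu x Angus, 1.75 ± 0.53 in Hereford and 1.37 ± 0.36 in Angus (SD, n = 8 each). TNMD had means of -4.06 ± 1.39, -2.33 ± 1.88 and -2.76 ± 1.68 in the same order.

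Diet was compared in LD, with breed in the model. Some LD samples of both diets came, by the methods, from an earlier kill than the fat depots. The labels used here do not mark the kill, so diet and kill could not be separated. None of the 7 genes passed (11.2% of all probes did). All 7 were higher on supplement, and 4 had an unadjusted p under 0.05 in limma, as did 8801 of all 34227 probes. FMOD was higher by 0.58 ± 0.20 (adjusted p = 0.0516), MKX by 0.73 ± 0.26 (adjusted p = 0.0567), COMP by 0.48 ± 0.18 (adjusted p = 0.0782) and TNMD by 1.23 ± 0.55 (adjusted p = 0.15). MKX was between -4.41 and -2.30 on the 12 supplement arrays and between -5.56 and -2.93 on the 24 pasture arrays, so the diets overlapped. TNC, THBS4 and ANGPTL7 differed by 0.32, 0.30 and 0.12. Another MKX probe passed, at 0.60 ± 0.17 (adjusted p = 0.0194), and so did the TNC probe that differs from its main one, at -0.71 ± 0.23 (adjusted p = 0.0433).

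Each slide of LD arrays held 1 diet, and arrays of 1 slide were alike, with a correlation of 0.43. With slide as a random block 1 of all probes and 0 of the 7 genes passed for diet. Within the 1 scan day that each breed's supplement arrays share with 4 of its pasture arrays, the MKX difference was 1.25 in Wagyu x Angus, 0.69 in Hereford and -0.10 in Angus, and that of TNMD was 1.79, 1.71 and -0.79. The interaction of diet and breed passed for 0 of 7 genes, with 16.2% of all probes past the threshold and adjusted p between 0.194 and 0.956. Of the other probes, 2 of TNC passed (adjusted p = 0.0389 and 0.00321 in limma). With slide as a random block 0 of all probes passed for this interaction, so neither TNC call held.

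Of the LD arrays, a Hereford supplement array at slide 12, position 2, was the highest in every gene but FMOD, with TNMD at 1.35, THBS4 at 4.67, ANGPTL7 at -2.84 and COMP at 1.19 by its dimmer probe. In the wider lists 3 of 11 collagens and fibre proteins were higher on supplement and 0 lower, with 11.2% of all probes past the threshold in either direction: COL1A1 by 0.88 ± 0.21, COL1A2 by 0.83 ± 0.18 and COL5A2 by 0.32 ± 0.10. With slide as a random block at most 1 of these calls could hold, since 1 probe passed in all. In Angus the adipocyte markers were at -1.38, -0.84, -0.56 and -1.47 on the supplement arrays. They were at 0.83, 1.68, 1.48 and 1.23 on the pasture arrays of the same scan day. The fibroblast markers, which include COL1A1 and COL1A2, were at 3.09, 3.06, 2.75 and 3.32 against 2.63, 2.55, 3.07 and 2.83. The part of these markers in the diet differences was not tested.

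**Figure D5:**
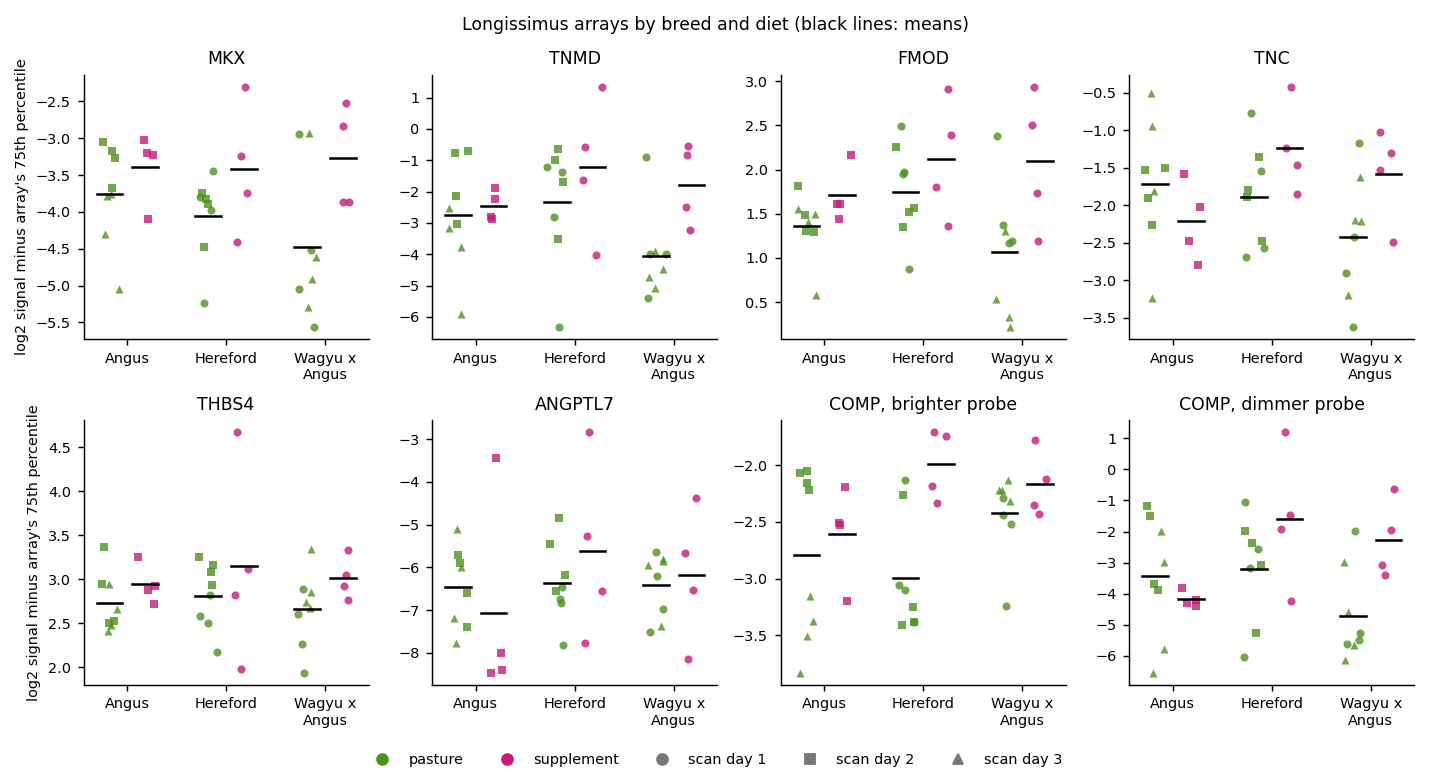
Level of each gene (log2 signal minus the array's 75th percentile, vertical axis) on the 36 LD arrays by breed (horizontal axis) and diet (colour), with the scan day as the marker shape and black lines for means. The supplement means are higher in Hereford and Wagyu x Angus for every gene shown, while in Angus TNC, ANGPTL7 and the dimmer COMP probe are lower, and the diets overlap in each breed in every gene shown.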

How the data were processed

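Total RNA of 96 samples was labelled with Cy3 and read on 1-colour Agilent arrays, 4 to a slide. For every array the authors deposited scanner files with spot intensity values, background subtracted by the scanner software and not scaled between arrays, and a table of log2 values, which matched log2 of the processed intensity to within 8.3e-05. Per the file headers the array's grid was built on the Btau_3.1 cattle genome; no coordinates were used.

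The level of a probe was log2 of the processed intensity minus the array's 75th percentile. Control spots and 9361 spots with an outlier flag were left out, and 0 spots were saturated. Between 80.89% and 98.63% of the probes in the authors' table were well above background on an array, and the number of arrays limits the precision. Probes were named by their transcript accession through cattle RefSeq genes, or through the study's probe tables, which gave 21549 named probes. Comparisons were fitted with limma 3.58.1 (lmFit and eBayes, R 4.3.3) over the 34227 probes of the authors' table, p-values adjusted by Benjamini-Hochberg and called under 0.05. Correlations used 100000 permutations and were two-sided (scipy 1.17.1). The fits were tested on simulated data: with 200 probes given a log2 change of 1, the share found was 77.5% for Inter against Kid, 90% for diet in LD and 33% for breed in IMF. The simulated arrays were independent, with no effect of slide or scan day. The correlation of 0.43 between LD arrays of 1 slide was thus left out, so the shares can be too high where slide or scan day matters.

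The members and lists were chosen with earlier results of these data known. Each member is given by the probe in the study's own list or else by its brightest probe on average; from each list up to 4 genes past the threshold with the largest differences are named (1 list gene is not reported here), and like genes are the 5 with the highest r. CHAD, CILP2, COL1A1 and COL3A1 on single arrays, and genes named beyond 4 or by their known role, were chosen after their values were seen. Replicate numbers did not pair arrays (median r of deviations 0.01 for equal numbers in different tissues and -0.004 for other numbers). Alternatives were other scalings, background correction (normexp), filters, the authors' table, scan day, slide, replicate number, other probes and leaving out arrays. Leaving out the arrays that stood apart, and using only pasture arrays of the same scan day, were chosen after seeing the data.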

Additional observations from a re-analysis of the deposited data

Results flagged for a closer look

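Of 146 sets of 4 to 10 arrays of 1 gene in 1 group, 9 held an array whose gap to its nearest neighbour was large for the group's range, while chance gives about 1 in 20, or 7.3. In IMF, FMOD was at 1.91 on an Angus array, with the next at 3.43, and at 2.24 on a Wagyu x Angus array, with the next at 3.61. MKX was at -1.94 on a Hereford SC array, with the next at -5.60, and at -3.60 on a Hereford Omen array, with the next at -5.25. TNC was at -2.35 on a Wagyu x Angus SC array, with the next at -3.12. In LD, FMOD was at 0.58 on an Angus pasture array, with the next at 1.29. ANGPTL7 was at -3.44 on an Angus supplement array, the 1 array of 4 that measured it above background, with the next at -8.00. TNMD was at -0.90 on a Wagyu x Angus pasture array, with the next at -3.89, and COMP at -3.24 on another, with the next at -2.52. The 3 Inter arrays described above were not among them.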

How the results depend on the processing

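No difference past the threshold changed its direction under an alternative. Numbers of probes past the threshold, and of the 7 genes, moved as follows. For Inter against Kid (5276 probes, 3 genes) they were 2942 and 5 with the authors' table, 2775 and 0 with scan day, and 1269 and 1 with slide as a random block, and with normexp 2 genes passed. Without the 3 Inter arrays 3350 probes passed, and without 4 it was 2875 probes and 1 gene, while with the spread of 60 fat arrays 7 genes passed. For Inter against Omen (4642 and 4) they were 485 and 0 with scan day and 2188 and 2 with slide, and 2 genes passed with normexp, without the 3 and without the 4 Inter arrays. For Kid against Omen (4150 and 1) they were 2603 probes centred on the mean, 1426 and 2 with the authors' table, 281 and 0 with scan day, 2003 with slide and 6269 with the spread of 60 arrays. For diet in LD (3850 and 0) probes were 1129 with normexp, 5923 with the authors' table, 2306 with scan day, 1 with slide, 2413 by the methods' t-test, 2463 with no breed term and 2454 with pasture arrays of the same scan day, and 1 gene, FMOD, passed centred on the mean, among probes above background and with the replicate block. For diet by breed (5539) probes were 1138 with normexp, 850 with the authors' table, 2970 with scan day and 0 with slide. For breed they were 2502, 2703 and 0 in LD on pasture (5044) with normexp, the authors' table and slide, and 663, 689 and 304 in fat (1094) centred on the mean, with normexp and with the authors' table. In IMF (19) they were 45, 6, 9 and 0 with normexp, the authors' table, all probes and the replicate block. For depot by breed (0) 4 passed with normexp and 2 with all probes. COMP against the myofibre markers was lost (0 genes) centred on the mean, with the authors' table, with all probes and with the replicate block. The cause of these moves was not tested.

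Leaving out 1 array at a time gave 3769 to 6743 probes and 3 to 4 genes for Inter against Kid, 3578 to 5088 and 3 to 4 for Inter against Omen, 2996 to 5036 and 1 to 2 for Kid against Omen, 2843 to 4707 and 0 to 2 for diet, 3583 to 6383 for diet by breed, 3136 to 5751 and 0 to 1 for breed in LD, 898 to 1458 for breed in fat, 0 to 368 for breed in IMF, 0 to 80 for depot by breed, and 8998 to 12001 and 0 to 2 for the myofibre markers. The highest count for breed in IMF, 368, was without the Hereford array at slide 9, position 2, and the next were without the Angus array at slide 8 and the Angus array at slide 18, position 1. Diet in LD gained FMOD in 9 of 36 fits, MKX in 6 and COMP in 1, without the Angus supplement array at slide 1, position 3 (adjusted p = 0.0354), breed in LD gained FMOD (adjusted p = 0.0381) without the Wagyu x Angus pasture array at slide 14, position 2, and Inter against Kid gained FMOD without any 1 of the 4 Hereford Inter arrays. MKX in Inter against Omen was lost in 14 of 24 such fits (adjusted p 0.0269 to 0.0735), and COMP against the myofibre markers in 8 of 12 (adjusted p 0.00709 to 0.158). With the replicate block MKX was lost for Inter against Omen (adjusted p = 0.0555), with 3 genes left; besides the calls named above it changed no other. Arrays give no read depth, and genes near background, above all TNMD and ANGPTL7 outside IMF, are limited by their signal.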
